A study of Mus musculus with 6 samples.

Results

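The 9 genes described here, *Adgre1*, *Adgre4*, *Adgre5*, *Adgrg1*, *Adgrg3*, *Adgrg5*, *Adgrl1*, *Adgrl2* and *Adgrl3*, encode adhesion G protein-coupled receptors. They were measured on expression arrays of microglia from mice lacking the transcription repressor Bhlhe41 and from heterozygous controls. Every non-control probe whose transcript accession belonged to 1 of these symbols was taken, which gave 15 probes: 1 probe each for 5 genes, 2 each for *Adgre1*, *Adgrg3* and *Adgrl1*, and 4 for *Adgrl3*. The 9 genes were part of 29 adhesion receptor genes with a probe, among 23462 named genes on the array. They were selected on this same genotype comparison, in which *Adgre1* and *Adgrl2* moved in opposite directions, so their values and differences are a description. Counts of members that passed the array-wide threshold support nothing.

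The control group, B41HET, held 3 samples from *Bhlhe41* dTomato-Cre/+ mice, and the deficient group, B41KO, held 3 samples from *Bhlhe41* dTomato-Cre/dTomato-Cre mice. Both groups therefore carried the dTomato-Cre allele, under the *Bhlhe41* promoter itself, and no sample was from wild-type mice. Per the study's methods the mice were young, each sample was pooled from several mice, and microglia were enriched on Percoll and sorted as live CD45-low, CD11b+ and Cx3cr1+ cells. Total RNA was labelled with Cy3 and hybridized to 1 array per sample.

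Adhesion receptors carry a long extracellular region that binds matrix proteins or molecules on neighbouring cells, joined to a membrane-spanning domain that signals through G proteins. Most are cut at an internal site near the membrane, and the stretch of peptide next to the cut can act as a tethered agonist. Microglia are best known within this family for *Adgre1*, whose product is the macrophage antigen EMR1, and for *Adgrg1*, whose product GPR56 binds transglutaminase 2 and collagen. CD97, from *Adgre5*, is carried by many leukocytes and binds CD55. GPR97, from *Adgrg3*, is best known in neutrophils, and the latrophilins, from *Adgrl1* to *Adgrl3*, are receptors of synapses that bind teneurins and FLRT proteins.

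The promoters of the members were read for CACGTG, the E-box that Bhlhe41 is known to recognise. The set of promoter sequences used held 10 promoters of 7 member genes on GRCm38.p6, each covering 250 bases before the start and 50 after it. *Adgre1* and *Adgre5* had no match in that set. CACGTG was in 0 of the 10 member promoters and in 7.15% of 32851 promoters of all genes. The looser motif CANNTG, which includes CACGTG and reads the same on both strands, was in 6 of the 10 and in 72.3% of all promoters. Such a match is a stretch of letters and not a binding site, and its absence speaks only of this window. The 250 bases before the start are printed below, 5′ to 3′ and with CANNTG in capitals. They are given for the members with a promoter entry and a probe lower in B41KO without overlap, which in *Adgrl1* was only its dimmer probe. *Adgrg1*, the gene next to *Adgrg3*, is added as a neighbour with little difference.
*Adgrg3*, chr8:95017442-95017691, plus strand: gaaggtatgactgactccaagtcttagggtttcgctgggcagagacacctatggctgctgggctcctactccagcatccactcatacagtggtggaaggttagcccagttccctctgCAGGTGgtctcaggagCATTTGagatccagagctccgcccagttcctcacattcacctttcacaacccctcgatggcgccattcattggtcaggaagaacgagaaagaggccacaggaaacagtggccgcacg
*Adgrl2*, chr3:148954636-148954885, minus strand: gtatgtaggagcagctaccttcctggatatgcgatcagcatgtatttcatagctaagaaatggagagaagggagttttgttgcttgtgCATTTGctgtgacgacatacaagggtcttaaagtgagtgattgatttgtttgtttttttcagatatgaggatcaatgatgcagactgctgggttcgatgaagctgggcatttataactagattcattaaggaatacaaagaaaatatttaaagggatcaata
*Adgrl1*, chr8:83899848-83900097, plus strand: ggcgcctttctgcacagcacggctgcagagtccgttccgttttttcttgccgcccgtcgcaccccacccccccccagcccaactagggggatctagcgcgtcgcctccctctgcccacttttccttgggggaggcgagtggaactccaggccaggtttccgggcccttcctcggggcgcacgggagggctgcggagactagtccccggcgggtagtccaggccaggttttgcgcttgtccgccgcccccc
*Adgrg1*, chr8:94976859-94977108, plus strand: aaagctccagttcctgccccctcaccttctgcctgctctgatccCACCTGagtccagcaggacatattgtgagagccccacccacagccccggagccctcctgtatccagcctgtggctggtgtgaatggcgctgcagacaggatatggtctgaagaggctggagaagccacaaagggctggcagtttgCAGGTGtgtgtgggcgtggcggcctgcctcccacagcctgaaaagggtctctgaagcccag
*Adgrg3* held 2 such matches in the printed stretch, *Adgrl2* held 1, *Adgrl1* held 0 and this *Adgrg1* promoter held 2.

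Values are log2 intensities after quantile normalization over the 6 arrays, so a difference of 1 stands for a doubling, and levels of different genes are not set against each other. A probe was called where limma gave an adjusted p of at most 0.05 and a difference of at least 0.5. A second setting named below, the normexp setting, started from median spot signals, subtracted background by normexp and added an offset of 50, so more than 1 choice changed there. On these arrays 39654 to 42719 of 56605 probes were well above background and no spot was saturated. Correlations between arrays were 0.9893 to 0.9928 within a genotype and 0.9848 to 0.989 between genotypes. The 6 arrays shared 1 slide and 1 scan day, but the 3 B41HET arrays and B41KO replicate 1 were in the first row of the slide and the other B41KO arrays in the second. For the targeted gene, whose allele is described as ending translation, the brighter *Bhlhe41* probe read 7.95, 7.87 and 7.65 in B41HET and 8.56, 7.84 and 8.21 in B41KO, a difference of 0.38 (limma, adjusted p = 0.330). The dimmer probe read 7.86, 7.58 and 7.40 in B41HET and 7.96, 7.91 and 7.95 in B41KO, without overlap, a difference of 0.33 (adjusted p = 0.204). Neither probe was lower in B41KO, so they do not check the labels. Nothing in the labels says that the samples were prepared separately in every step, so the p-values measure the spread between these samples.

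The microglial label held. All 10 microglial markers were well above background on all 6 arrays, with *Tmem119* at 14.86 ± 0.05 (SD, n = 3) in B41HET and 14.81 ± 0.05 in B41KO, and 1 of them, *Fcrls*, was called, lower in B41KO by -0.76. Markers of neutrophils, monocytes and border macrophages moved with genotype, while 0 of 7 T and NK cell markers and 1 of 3 B cell markers were called. Of 10 neutrophil markers 8 were called lower in B41KO, with a median difference of -2.37, and their summed intensity was 30681 to 34514 in B41HET and 5738 to 6244 in B41KO. The brightest of them, *Lcn2*, *Ltf*, *Ngp* and *S100a8*, encode neutrophil granule and cytosolic proteins and differed by -1.81, -3.18, -3.13 and -2.22. Of 6 monocyte markers 4 were called lower (summed intensity 1367 to 1467 against 354.7 to 374.1). Of 8 border macrophage markers 4 were called lower (2483 to 2661 against 1693 to 1889), and all 8 lay below the controls without overlap. The part of these cells in the results on the members was not tested.

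**Figure D1:**
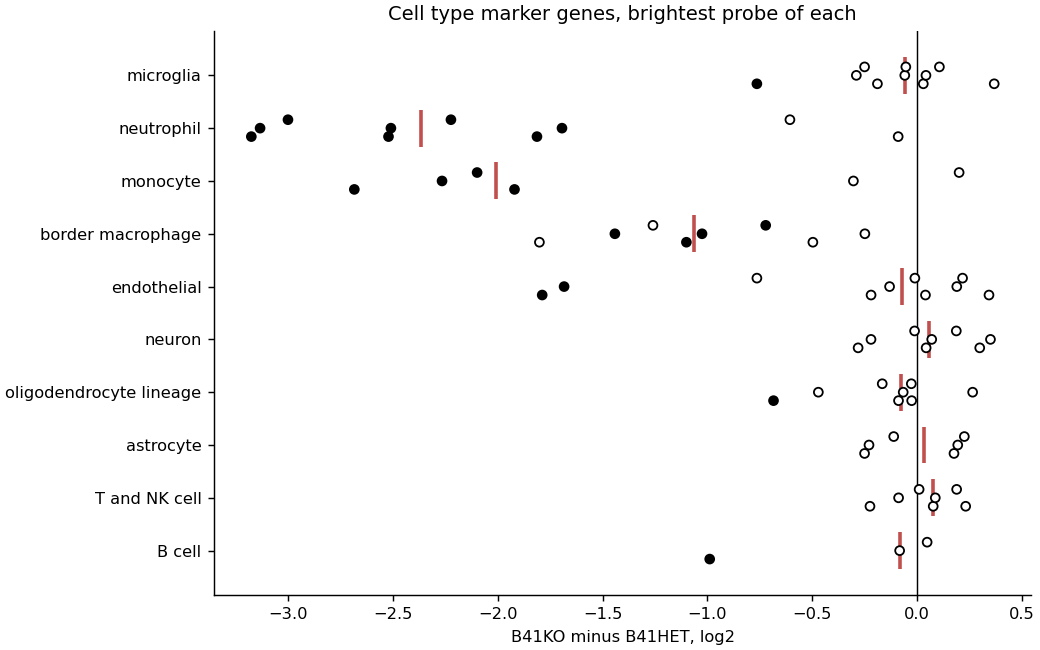
Difference between genotypes (B41KO minus B41HET, log2, x axis) of each marker gene on its brightest probe, by cell type; filled points were called and red bars are list medians. Neutrophil, monocyte and border macrophage medians lie at -2.37, -2.01 and -1.06, and the microglial median lies at -0.06.

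Of the 9 members, 6 were well above background on all 6 arrays, through 9 probes. Between the genotypes 7 of these 9 probes had no overlap, 2 with B41KO above and 5 with B41KO below. Over all 15 member probes, dim ones included, 8 had no overlap, beside 29.6% of all probes tested. The members were selected on this comparison, so nothing is read from these counts. By the threshold of the fit, 4 of the 15 member probes were called, 1 higher and 3 lower, where 1.72% of all probes were called higher and 3.38% lower and nothing is read from that count. The median difference of the 9 probes was -0.35, beside 0.01 over all probes tested. Fewer cells carrying a transcript and less transcript per cell cannot be told apart in such bulk samples.

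**Figure D2:**
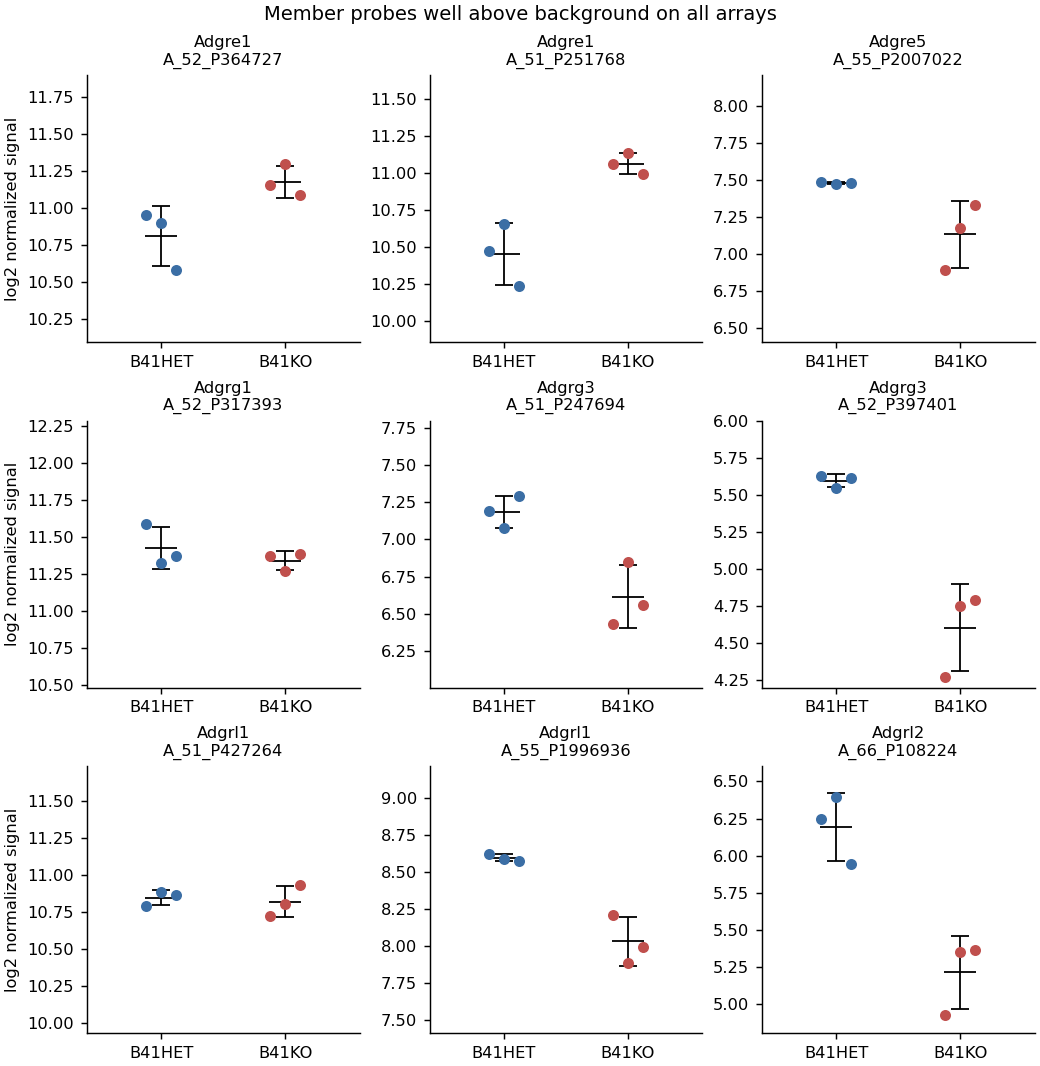
Signal (log2 normalized, y axis, each panel spanning the same number of log2 units) of the 9 member probes well above background on all arrays; points are the 3 samples of each genotype, and bars are the mean and SD. Both *Adgre1* probes lie higher in B41KO, and the probes of *Adgre5*, *Adgrg3* and *Adgrl2* and the dimmer *Adgrl1* probe lie lower, without overlap.

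*Adgre1* was the only measured member with higher signal in B41KO. Its dimmer probe, A_51_P251768, read 10.47, 10.65 and 10.23 in B41HET and 11.06, 11.13 and 10.99 in B41KO. All 3 B41KO samples lay above all 3 B41HET samples, by at least 0.34, and the difference was 0.61 (SE 0.12), or 1.52-fold. Its brighter probe, A_52_P364727, read 10.95, 10.90 and 10.58 in B41HET and 11.15, 11.30 and 11.09 in B41KO. The genotypes were again apart, with a gap of 0.13, and the difference was 0.37 (SE 0.13). B41HET replicate 3 was the lowest sample on both probes. Without it the differences were 0.50 and 0.25.

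The other leukocyte receptors of the same subfamily were lower or dim. *Adgre5*, which encodes CD97, read 7.49, 7.47 and 7.48 in B41HET and 6.89, 7.17 and 7.33 in B41KO. The controls were nearly equal, the B41KO samples spread below them, and the difference was -0.35 (SE 0.12). B41KO replicate 1 was the lowest, and without it the difference was -0.23. *Adgre4*, whose product was described as FIRE on mouse myeloid cells, was clear of background in a single sample, B41KO replicate 2, at 3.15, and no fold is given for it.

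The 3 members of the G subfamily are neighbours in the order *Adgrg5*, *Adgrg1*, *Adgrg3* on chromosome 8. *Adgrg1*, which encodes GPR56, read 11.58, 11.32 and 11.37 in B41HET and 11.37, 11.27 and 11.38 in B41KO. Its genotypes overlapped, with a difference of -0.09 (SE 0.10). *Adgrg3*, which encodes GPR97, was lower in B41KO on both of its probes.

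Probe A_52_P397401 of *Adgrg3* read 5.63, 5.55 and 5.62 in B41HET and 4.27, 4.75 and 4.79 in B41KO. Every B41KO sample lay below the controls, and the difference of -0.99 (SE 0.16), or 1.99-fold, was -1.08 to -0.82 with 1 sample left out and -0.38 in the normexp setting. Probe A_51_P247694, the brighter, read 7.19, 7.08 and 7.29 in B41HET and 6.43, 6.85 and 6.56 in B41KO. It differed by -0.57 (SE 0.13), again without overlap, and by -0.37 in the normexp setting. Beside these values, the 10 neutrophil markers summed to 0.184 times the intensity of B41HET, with granule genes lower and the surface receptor gene *Cxcr2* at 6.02 ± 0.17 in B41HET and 5.93 ± 0.08 in B41KO, with overlap. The sort on CD45-low cells is meant to leave neutrophils out, and the part of such cells in the *Adgrg3* difference was not tested. *Adgrg5*, the remaining neighbour, stayed near background throughout, with 0 arrays on which its probe was well above it.

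Among the latrophilins, *Adgrl2* had lower signal in B41KO. Its only probe, A_66_P108224, read 6.24, 6.40 and 5.95 in B41HET and 4.92, 5.35 and 5.36 in B41KO. The lowest control lay 0.58 above the highest B41KO sample, and the difference was -0.98 (SE 0.17), or 1.98-fold lower. It was -1.11 to -0.84 with 1 sample left out and -0.45 in the normexp setting. *Adgrl4*, the next gene on chromosome 3 and a receptor of endothelial cells, read 3.59, 3.67 and 3.13 in B41HET and 3.17, 3.22 and 4.15 in B41KO, with overlap (0.05, SE 0.31; limma, adjusted p = 0.950). Of the endothelial markers, *Cdh5*, *Tek*, *Emcn*, *Tie1* and *Flt1* had 0 arrays well above background and *Esam* had 2. *Cldn5* (6.71 ± 0.10 in B41HET, 6.57 ± 0.10 in B41KO) and *Kdr* (3.54 ± 0.33 and 3.53 ± 0.19) were above it on all 6 and not called. *Pecam1* and *Ly6c1*, which leukocytes also carry, were called lower, at -1.68 and -1.79. The summed intensity of the list was 1166 to 1278 in B41HET and 426.4 to 467.4 in B41KO. The part of endothelial cells in the *Adgrl2* difference was not tested.

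*Adgrl1*, the receptor that gave latrophilins their name as a target of spider toxin, gave different answers on its 2 probes. The dimmer, A_55_P1996936, read 8.62, 8.59 and 8.57 in B41HET and 8.21, 7.89 and 8.00 in B41KO. All B41KO samples were lower, with a difference of -0.56 (SE 0.10), which was -0.65 to -0.49 with 1 sample left out. The brighter, A_51_P427264, read 10.79, 10.88 and 10.87 in B41HET and 10.72, 10.80 and 10.93 in B41KO. Its genotypes overlapped, with a difference of -0.03 (SE 0.08), so a lower level of the gene as a whole is not shown. None of the 4 *Adgrl3* probes was well above background on more than 1 array, and no fold is given for this gene, a receptor best known from neurons.

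**Figure D3:**
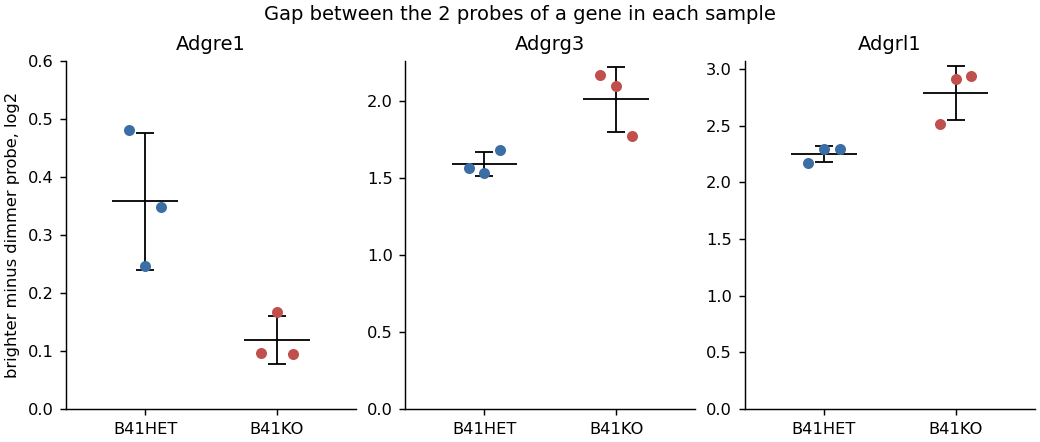
Signal of the brighter probe minus that of the dimmer probe (log2, y axis) in each sample, for the 3 members with 2 probes; bars are the mean and SD. The gap narrows in B41KO for *Adgre1* and widens for *Adgrg3* and *Adgrl1*, without overlap in any of the 3, as in 39.6% of all genes with 2 such probes; in the normexp setting the 2 probes of *Adgre1* and of *Adgrg3* moved nearly alike.

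For each of the 3 genes with 2 measured probes, both probes were matched to the same transcript accession, yet the distance between them changed with genotype. In *Adgre1* the brighter probe exceeded the dimmer by 0.48, 0.25 and 0.35 in B41HET and by 0.10, 0.17 and 0.09 in B41KO. In *Adgrg3* the gap was 1.56, 1.53 and 1.68 in B41HET and 2.16, 2.10 and 1.77 in B41KO. In *Adgrl1* it was 2.17, 2.29 and 2.29 in B41HET and 2.51, 2.91 and 2.94 in B41KO. The genotypes did not overlap in any of the 3 gaps, and among all 4424 named genes with 2 probes well above background on all arrays 39.6% had such a gap, so this is common on the array and nothing particular to the members is read from it. In the normexp setting the brighter and dimmer probes differed between genotypes by 0.47 and 0.52 in *Adgre1* and by -0.37 and -0.38 in *Adgrg3*, so there the 2 probes moved nearly alike, while in *Adgrl1* they differed by -0.03 and -0.51. With probes averaged per gene the differences were 0.49, -0.78 and -0.30.

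Over the 6 samples, the genes whose signal followed *Adgre1* most closely were *Bckdhb*, *B4galt3* and *Slc2a5*, with Pearson's r of 0.9953, 0.9932 and 0.9897. For *Adgrl2* they were *Tigd2*, *Mef2c* and *Clec12a*, at 0.9948, 0.9947 and 0.9936. These are the top 3 of 17206 genes compared, over samples that share their genotype difference and normalization, and are given as a description. *Slc2a5*, which encodes the fructose transporter GLUT5 and marks microglia, read 12.21, 12.14 and 11.90 in B41HET and 12.43, 12.53 and 12.40 in B41KO. Both *Adgre1* and *Slc2a5* were lowest in B41HET replicate 3 and highest in B41KO replicate 2.

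The rest of the adhesion receptor family showed no called change. Of 20 other family genes with a probe, 16 were well above background on all 6 arrays, and 0 were called by limma (3, *Adgrf4*, *Adgrg2* and *Adgrg7*, had an unadjusted p under 0.05, as had 23.0% of all probes, and *Adgrg7* was well above background on 1 array), where 1.44% of all named genes were called higher and 4.05% lower on their brightest probe. Their median difference was 0.05. *Adgrb2*, which encodes the brain receptor BAI2, read 10.91, 10.93 and 11.29 in B41HET and 11.33, 11.28 and 11.50 in B41KO, with overlap (0.33, SE 0.13; adjusted p = 0.219). *Adgra2*, the GPR124 receptor of Wnt7 signalling in brain vessels, differed by 0.11 (SE 0.09; adjusted p = 0.553), and *Adgrb1*, the phosphatidylserine-binding BAI1, by -0.03 (SE 0.15; adjusted p = 0.924) on its brightest probe. Its other probes lay at 0.50 (adjusted p = 0.0398), just under the size threshold, and 0.27 (adjusted p = 0.221), both with B41KO above B41HET without overlap, so the probes of *Adgrb1* differ. The second *Adgrb2* probe lay at -0.15 (adjusted p = 0.269). These genes are what was left of the family after the members were selected on this comparison, so their lack of calls is conditioned on that selection too.

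**Figure D4:**
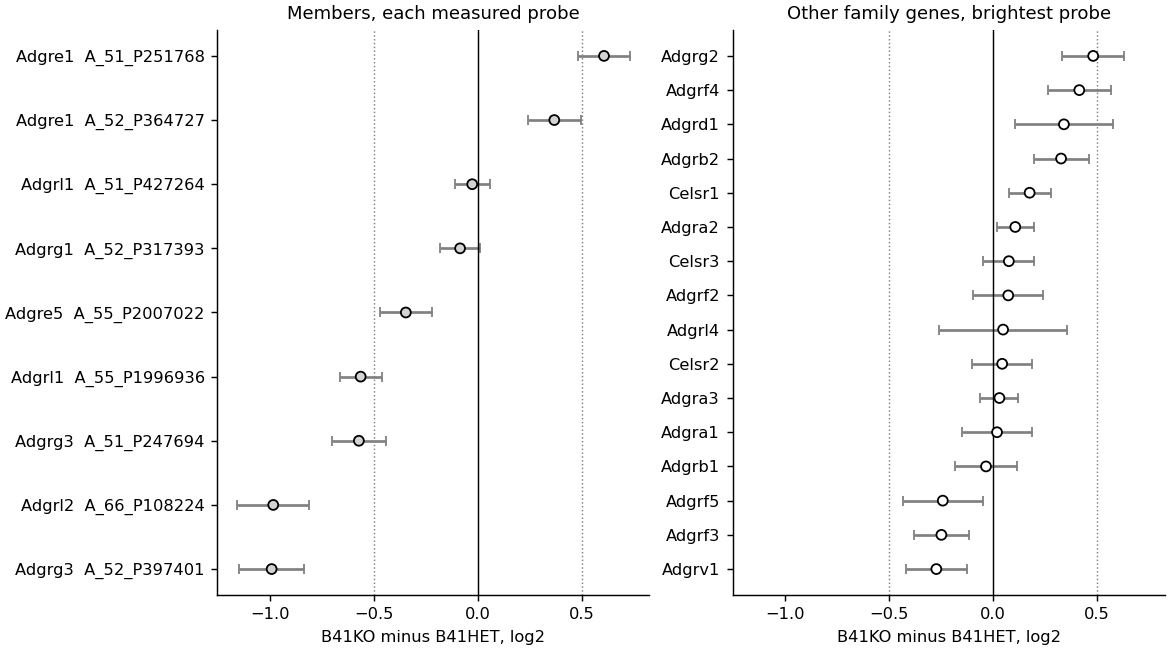
Difference between genotypes (B41KO minus B41HET, log2, x axis, with the SE of the fit) of the 9 measured member probes on the left and of the 16 other family genes well above background on all arrays on the right; grey member points carry no call, open points were not called, and dotted lines mark a difference of 0.5 in either direction. Member probes reach from -0.99 to 0.61, and none of the other genes was called.

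The genes for binding partners were next compared, to see whether ligands of these receptors differed as well. Of 20 partners, 0 were called higher and 2 lower, where 1.44% and 4.05% of all named genes were, with a median difference of 0.13. *Tgm2*, which encodes the transglutaminase bound by GPR56, read 10.44, 10.48 and 10.53 in B41HET and 9.51, 9.62 and 9.41 in B41KO. It fell by 0.97 (SE 0.08; limma, adjusted p = 0.00557), with its receptor gene *Adgrg1* at -0.09. *Itga5*, the integrin chain that pairs with *Itgb1* as a fibronectin receptor and is a partner of CD97, read 9.73, 9.75 and 9.67 in B41HET and 8.86, 8.86 and 8.92 in B41KO. It fell by 0.84 (SE 0.07; adjusted p = 0.00498). Both calls remained with each sample left out in turn and were lost with slide row as a block (differences of -0.97 and -0.85, adjusted p = 0.0631 and 0.0569), where the B41KO arm is 1 array and the differences were about as large.

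The brightest partners that were not called differed by less than 0.5. The tetraspanin genes *Cd81* and *Cd9*, whose products associate with GPR56 and other receptors at the membrane, differed by 0.28 (SE 0.14; adjusted p = 0.294) and 0.39 (SE 0.07; adjusted p = 0.0392). *Cd9* passed on adjusted p but not on size. *Itgb1* differed by 0.07 (SE 0.09; adjusted p = 0.699). *Cd55*, the ligand of CD97, was added to the named genes after its values were seen. It read 4.81, 4.80 and 4.39 in B41HET and 3.82, 4.10 and 4.20 in B41KO, a difference of -0.62 (SE 0.16; adjusted p = 0.0856). Its second measured probe lay the other way, at 0.42 (SE 0.22; adjusted p = 0.332), so no direction is given for *Cd55*.

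Genes that carry the signal of such receptors inward were compared next. Of 18 signal transducers, 5 were called lower and 0 higher, where 4.05% and 1.44% of all named genes were, with a median difference of -0.16. Over all 32 of their probes, 8 were called lower and 0 higher, where 3.38% and 1.72% of all probes were. These include 2 probes of *Gnas*, for the Gs subunit, at -2.11 and -0.68, whose brightest probe lay at -0.42 (adjusted p = 0.0424), under the size threshold, and whose other probes ranged from -0.29 to 0.08. Among the 5 genes called on their brightest probe, *Gna12*, *Gna11* and *Gnaz* encode G protein alpha subunits. *Gna12*, whose product couples receptors such as GPR56 to RhoA, read 13.11, 13.09 and 12.80 in B41HET and 12.20, 12.32 and 12.06 in B41KO, and fell by 0.81 (SE 0.12; adjusted p = 0.0235). *Gna11*, of the Gq class, fell by 0.82 (SE 0.11; adjusted p = 0.0164), and *Gnaz*, of the Gi class, by 0.90 (SE 0.12; adjusted p = 0.0177). In all 3 genes every B41KO sample lay below every control.

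The other 2 encode RhoGEFs, exchange factors that G12 and G13 subunits activate. *Arhgef11* read 9.55, 9.90 and 9.55 in B41HET and 8.57, 8.60 and 8.54 in B41KO, and fell by 1.10 (SE 0.12; adjusted p = 0.00952). *Arhgef1* read 11.86, 11.75 and 11.83 in B41HET and 11.01, 11.08 and 10.97 in B41KO, and fell by 0.79 (SE 0.07; adjusted p = 0.0068). Each has a second probe that was not called, at -0.04 (SE 0.07; adjusted p = 0.823) with overlap in *Arhgef11* and at -0.23 (SE 0.09; adjusted p = 0.224) without overlap in *Arhgef1*, so the probes of each gene differ. Averaged over their probes the differences were -0.57 (adjusted p = 0.0175) and -0.51 (adjusted p = 0.0196), both called. The third RhoGEF of this class, *Arhgef12*, was not called and lay at 0.35 (SE 0.12; adjusted p = 0.169), and its other probes lay at 0.09 and -0.22 with overlap.

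The brightest transducers not called were *Arrb2*, for the arrestin that ends receptor signalling, at 0.06 (SE 0.07; adjusted p = 0.677), *Gna15*, a Gq-class subunit of blood cells, at -0.15 (SE 0.07; adjusted p = 0.266), and *Gnai2*, the common Gi subunit of leukocytes, at 0.10 (SE 0.10; adjusted p = 0.627). Other probes gave other values: those of *Arrb2* lay at -0.55 (adjusted p = 0.0152), which was called, and at 0.11 (adjusted p = 0.489), and that of *Gnai2* lay at -0.49 (adjusted p = 0.0325), under the size threshold. The calls of *Arhgef1* and *Arhgef11* remained with each sample left out in turn. Those of *Gna12*, *Gna11* and *Gnaz* each remained in 1 of 6 such fits, namely without B41HET replicate 3, without B41HET replicate 1 and without B41KO replicate 1, with differences of -0.91 to -0.74, -0.88 to -0.73 and -1.02 to -0.84 over the 6. In the normexp setting *Gnaz* was at -0.38, under the size threshold. Blocking on slide row leaves the genotype difference resting on B41KO replicate 1 alone, and there none of the 7 partner and transducer genes was called, with the 5 transducers at -1.10 (*Arhgef11*), -0.80 (*Gna12* and *Arhgef1*), -0.75 (*Gna11*) and -0.67 (*Gnaz*). The neutrophil, monocyte and border macrophage markers were lower in the same samples, with the medians given above, and their part in the results on partners and transducers was not tested.

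The second slide row holds B41KO arrays only, so the effect of the row cannot be told from the spread of the B41KO samples. Within the first row, the single B41KO array differed from the 3 control arrays by -1.27 for *Adgrl2*, -1.33 and -0.75 for the probes of *Adgrg3*, -0.59 for *Adgre5* and 0.60 and 0.34 for those of *Adgre1*. For the dimmer *Adgrl1* probe it differed by -0.39.

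**Figure D5:**
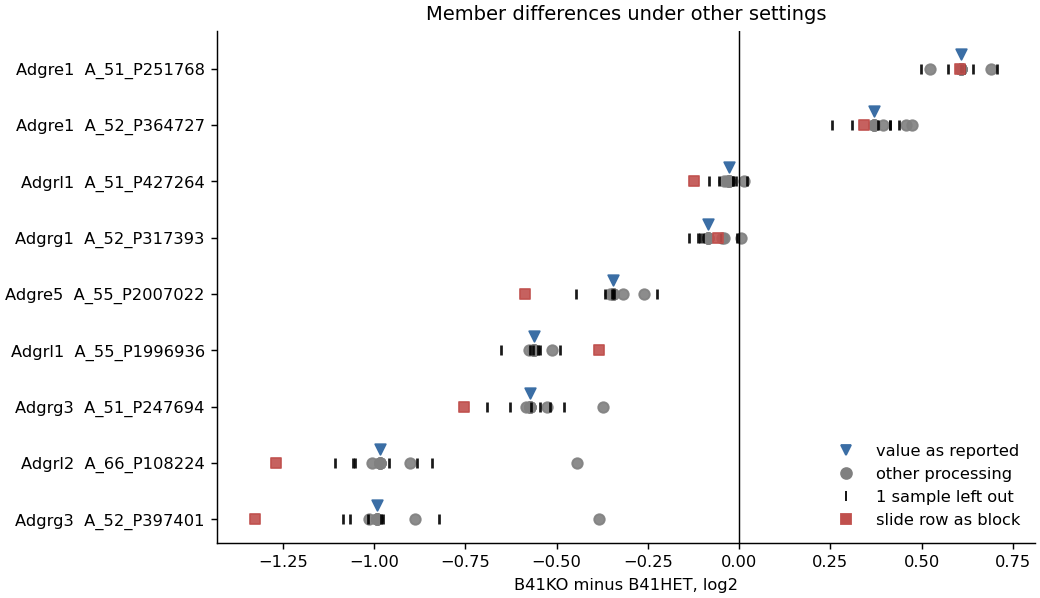
Difference between genotypes (B41KO minus B41HET, log2, x axis) of each measured member probe as reported, under other processing, with each sample left out and with slide row as a block. *Adgre1* stays above 0, *Adgre5*, *Adgrg3*, *Adgrl2* and the dimmer *Adgrl1* probe stay below 0, and *Adgrg1* and the brighter *Adgrl1* probe cross it.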

How the data were processed

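Microglia of 3 B41HET and 3 B41KO samples were profiled on 1-colour Agilent arrays. Per the file headers, Feature Extraction 11.5.1.1 read the scans that the authors deposited for each array, whose processed intensity has the background subtracted and is not scaled between arrays. The authors also deposited a table of log2 values, which ranked the probes nearly as the arrays did (Spearman correlation of at least 0.999999) and whose quantiles differed between samples by at most 0.00724, and which was used as an alternative. Control spots were left out, the log2 of that intensity was quantile normalized across arrays without a pseudocount, outlier spots were left out, and spots of a probe were averaged. Probes with values in at least 2 samples per genotype, 56601 of 56605, entered limma 3.58.1 (R 4.3.3), with genotype as the only term and Benjamini-Hochberg adjustment over all probes. The deposited intensities carry no read depth, and the number of arrays limits the precision.

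Symbols came from RefSeq accessions, which named 33767 of 56605 probes (59.7%). Only names and gene order were taken from that table, and promoters came from a separate set of sequences. A gene is represented by its brightest probe unless a probe is named. A probe is called measured here where it was well above background on all 6 arrays. Members and lists were chosen with earlier results of these data known. Named were all member probes, called genes of each list, the 3 brightest not called, and the 3 genes most correlated with *Adgre1* and *Adgrl2*; *Cd55*, *Gnas*, *Arhgef12*, *Adgrl4*, second probes and the other family genes under an unadjusted p of 0.05 were added afterwards. Promoter motifs were searched in 300 bases per promoter. The fit was tested on simulated data, and Python 3.11.15 with matplotlib 3.10.9 made the figures. Alternatives covered normalization, background correction, dim probes, outlier spots, variance model, blocks, probe choice, fold threshold and each sample left out. Same-numbered samples did not deviate together (r of 0.0276, 0.0136 and 0.0477), so they were not paired.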

Additional observations from a re-analysis of the deposited data

How the results depend on the processing

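Over all probes 2883 were called, 971 higher and 1912 lower in B41KO. Scaling to the 75th percentile of each array instead gave 1305 higher and 1523 lower and moved the median of all probes from 0.01 to 0.13 (log2), so small positive differences depend on the scaling. The count fell to 1501 with normexp on median signals and an offset of 50, which changes several choices at once, to 448 with slide row as a block, to 42 with the replicate number as a block, and to 0 in the first slide row alone (9287 had an unadjusted p under 0.05 in limma). Both row fits set the single B41KO array of that row against 3 controls, assume that it varies like them, and say nothing about stability. With 1 sample left out it was 796 to 1524.

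Of the members, 4 genes were called on any of their probes and 1 on its brightest. On their brightest probe 1.44% of all named genes were called higher and 4.05% lower. Of all probes 1.72% were called higher and 3.38% lower, and a share of genes called on any probe was not computed. The first count was 5 with the trended, robust variance, 2 in that normexp setting or with probes averaged, 1 with slide row as a block, 0 with the replicate block or in the first row alone, and 0 to 2 with 1 sample left out. The 75th percentile scaling also called 4, with *Adgrl3* in place of *Adgre1*. The 2 called without B41KO replicate 2 were *Adgre4* and *Adgrl3*, on probes not well above background on most arrays. In the normexp setting *Adgrl2* moved to -0.45 and the dimmer *Adgrg3* probe to -0.38. *Adgrg1* and the brighter *Adgrl1* probe changed sign in some settings. Several settings leave a difference as it is by construction, and leaving out 1 sample cannot turn the sign where groups do not overlap, so the kept signs of the other probes are no sign of stability.

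Of the partners and transducers 7 were called, 4 to 5 with 1 sample left out, and 0 with the slide row block, the replicate block or the first row alone (12, 15 and 13 had an unadjusted p under 0.05, as had 15.7%, 22.4% and 16.4% of all probes). Of the other family 0 were called in each setting except without B41KO replicate 2, where 1, *Adgrg7*, was (range 0 to 1). The causes of these shifts were not tested, and fewer samples or degrees of freedom remain in the blocked and reduced fits. Probes near background have no usable difference at this signal.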
